A study of Homo sapiens with 42 samples.

Results

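Line 1 and line 2 of HAP1 cells labelled as lacking NEIL1, NEIL2 and NEIL3 (neil123) were compared by RNA sequencing, using 8 of the 42 libraries of the series. The members were taken from the library labels: 4 libraries of neil123 line 1 and 4 of neil123 line 2, each with 2 libraries in media and 2 given 200 µM buthionine sulfoximine (BSO) for 48 h, begun after 4 h. HAP1 is a near-haploid human line derived from chronic myeloid leukaemia cells, and BSO inhibits glutamate-cysteine ligase, the first enzyme of glutathione synthesis. The lines are named by number only, and the labels used here do not say whether each is 1 clone or how the genes were cut. The labels call the letters A and B biological replicates, and nothing says that libraries of 1 letter came from separate cultures, so p-values measure the spread between these libraries. Wild type (wt) values are from the 8 lettered libraries of wt 1.1 and wt 1.3, 4 in media and 4 with BSO at the same dose and time.

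NEIL1, NEIL2 and NEIL3 are DNA glycosylases, enzymes that cut oxidized bases out of DNA and so start base excision repair. NEIL1 and NEIL2 act on many oxidized pyrimidines, and NEIL3 is also known for work on single-stranded DNA and on crosslinks between DNA strands. Independent lines of 1 knockout share the intended target and can differ in everything else their founder cells carried or later acquired, which is why studies of knockouts often carry more than 1 line.

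RNA of the 3 targeted genes was present in both lines. NEIL1 averaged 937 ± 152 normalized read counts in line 1, 1040 ± 74.1 in line 2 and 861 ± 74.1 in wt (SD, n = 4, 4 and 8). NEIL2 averaged 196 ± 26.5 in line 1, 207 ± 27.9 in line 2 and 376 ± 29.0 in wt. NEIL3 averaged 495 ± 48.4 in line 1, 421 ± 37.7 in line 2 and 641 ± 25.3 in wt. None of them differed between the lines past the threshold (adjusted p = 0.415, 0.701 and 0.0607), but NEIL3 did with the letter as a replicate block (difference 0.23, adjusted p = 0.0128). By contrast, NEIL2 and NEIL3 were lower than wt in each line by limma (adjusted p = 2.6e-09 and 6.8e-05 in line 1, 7.6e-09 and 1.4e-07 in line 2). A count over the whole gene does not show whether a cut transcript makes protein. BCR and ABL1, whose fusion marks the parental leukaemia, were read at 939 to 1058 and 1089 to 1316 counts over the 8 libraries. Counts per gene do not show whether the fusion is present. The leukocyte marker list summed to 9.32 to 16.7 counts in line 1 and 12.2 to 22.7 in line 2, and the endothelial list to 18.9 to 36.1 in line 1 and 10.2 to 18.1 in line 2, with no member of either list reaching the mean of 10 needed for testing.

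Values are the authors' normalized read counts. The 8 libraries summed to 27.8 to 29.1 M counts and held 17861 to 18398 named genes with a value. Mitochondrial transcripts took 1.84% to 2.72% of a library. Differences are line 1 minus line 2 on the log2(value + 1) scale, which understates the change of low genes, and each is given with its standard error (SE).

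The lines differed in 834 of 14316 genes tested (5.83%) by limma with treatment as a covariate at a Benjamini-Hochberg adjusted p under 0.05. Of these, 521 (3.64% of genes tested) were higher and 313 (2.19%) lower in line 1. Counts of called members in the gene lists below are to be read beside these shares. Among called genes whose lines did not overlap and whose higher mean was 50 counts or more, the differences of greatest size (line 1 minus line 2, log2) were those of ZNF492 (-5.03), MKRN3 (3.73), GFRA1 (3.37), LYPD1 (-3.25), ESRG (3.09) and CLMP (2.94). Most called differences were small, with a median size of 0.38 log2 units: 93 of the higher and 34 of the lower genes differed 2-fold or more. The 4 libraries of line 1 did not overlap the 4 of line 2 in 677 of the 834 genes, against 1477 (10.3%) of all genes tested. With the letter as a replicate block the count was 2097, which took in all 834. The count fell to 268 with media and BSO averaged to 1 value per line and letter, of which 265 were among the 834. In a fit over all 42 libraries it was 171. That fit has a term for each group, and the groups without letters (wt, NEIL1 and NEIL2 knockouts) pool differently labelled sources. The labels do not say whether these sources are separate lines. The spread of that fit includes differences between these sources, and a call lost there is to be read with that in mind. The count was 505 without the BSO library B of line 2 and 542 without its media library B. With columns scaled to equal totals the split became 416 higher and 449 lower. Scaling by trimmed-mean (TMM) factors gave 485 higher and 331 lower. The excess of higher genes was thus kept with TMM factors and lost with equal totals.

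ZNF492, a zinc finger gene of the chromosome 19 cluster, and MKRN3, a makorin ubiquitin ligase gene of the Prader-Willi region that is normally read only from the paternal copy, behaved almost as on in one line and off in the other. The promoters of both are shown because their lines stood furthest apart in opposite directions. In the RefSeq table (build GRCh38.p14), ZNF492 spans chr19:22634324-22667671 and MKRN3 chr15:23565674-23568044, both on the + strand. Each sequence runs 5′ to 3′ from 250 bases before to 50 bases after the annotated start, at chr19:22634074-22634373 and chr15:23565424-23565723, with every CG dinucleotide in capitals.
ZNF492: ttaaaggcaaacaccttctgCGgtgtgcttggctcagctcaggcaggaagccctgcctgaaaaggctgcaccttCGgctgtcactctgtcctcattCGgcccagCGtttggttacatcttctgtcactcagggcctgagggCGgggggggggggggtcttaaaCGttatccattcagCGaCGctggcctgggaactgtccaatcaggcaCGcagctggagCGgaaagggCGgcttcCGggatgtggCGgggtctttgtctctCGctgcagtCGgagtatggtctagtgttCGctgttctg
MKRN3: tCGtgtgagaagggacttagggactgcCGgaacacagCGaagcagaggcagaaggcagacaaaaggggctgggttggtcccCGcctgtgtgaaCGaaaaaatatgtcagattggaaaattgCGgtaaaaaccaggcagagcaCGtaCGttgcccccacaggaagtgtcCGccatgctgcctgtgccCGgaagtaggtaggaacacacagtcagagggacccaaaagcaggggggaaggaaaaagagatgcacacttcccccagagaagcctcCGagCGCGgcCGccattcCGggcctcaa
The ZNF492 promoter holds 16 CG and the MKRN3 promoter 15, CG reading alike on both strands. The median over 27305 promoters of the table is 14, and 56.0% hold 10 or more. Over the 11118 tested genes with a promoter the median is 26, above both. Of called genes with a promoter, 82.8% of those higher and 81.5% of those lower in line 1 held 10 or more. Among the 127 genes that differed 2-fold or more, 91 had a promoter in the table and 62.6% of those held 10 or more CG, against 88.8% of the 11118 tested genes with a promoter. Those 127 genes were chosen by their difference and no test was made. DNA methylation was not measured.

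ZNF492 had 2.99 and 3.11 counts in media and 2.0 and 2.09 with BSO in line 1, against 123.3 and 118 in media and 100 and 114 with BSO in line 2. The wt libraries ranged from 105 to 149. Line 1 was therefore the one that stood apart, with a difference from line 2 of -5.03 (SE 0.23, adjusted p = 7.72e-08 by limma) and from wt of -5.15 (adjusted p = 1.9e-15), while line 2 minus wt was -0.13 (adjusted p = 0.58). Over the other 34 libraries of the series ZNF492 lay between 26.3 and 189. ZNF208, ZNF98 and ZNF43, zinc finger genes of the same cluster, had at most 5.09 counts in any neil123 library, and ZNF100, another one, averaged 690 ± 81.9 in line 1 and 631 ± 43.9 in line 2 (adjusted p = 0.452). Zinc finger genes of 1 cluster share sequence, so how reads were split among them is uncertain.

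MKRN3 ran the other way. It had 63.7 and 79.7 counts in media and 80.1 and 77.2 with BSO in line 1, against 2.96 and 4.07 in media and 4.86 and 8.04 with BSO in line 2, and the groups did not overlap. The difference was 3.73 (SE 0.26, adjusted p = 4.24e-06 by limma). The wt libraries ranged from 1.96 to 13 counts, line 2 minus wt was -0.06 (adjusted p = 0.94), and over the other 34 libraries MKRN3 reached at most 54.0. Of 29 imprinted genes tested, MKRN3 and DLK1, a Notch-related growth regulator, were called and both were higher in line 1. That is 6.9% of the list, near the 5.83% of all genes tested, so nothing is read from the count. The median of that list was 0.04, against 0.01 over all genes tested, and DLK1 lost its call in 5 of the 8 fits that left out a library.

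**Figure D1:**
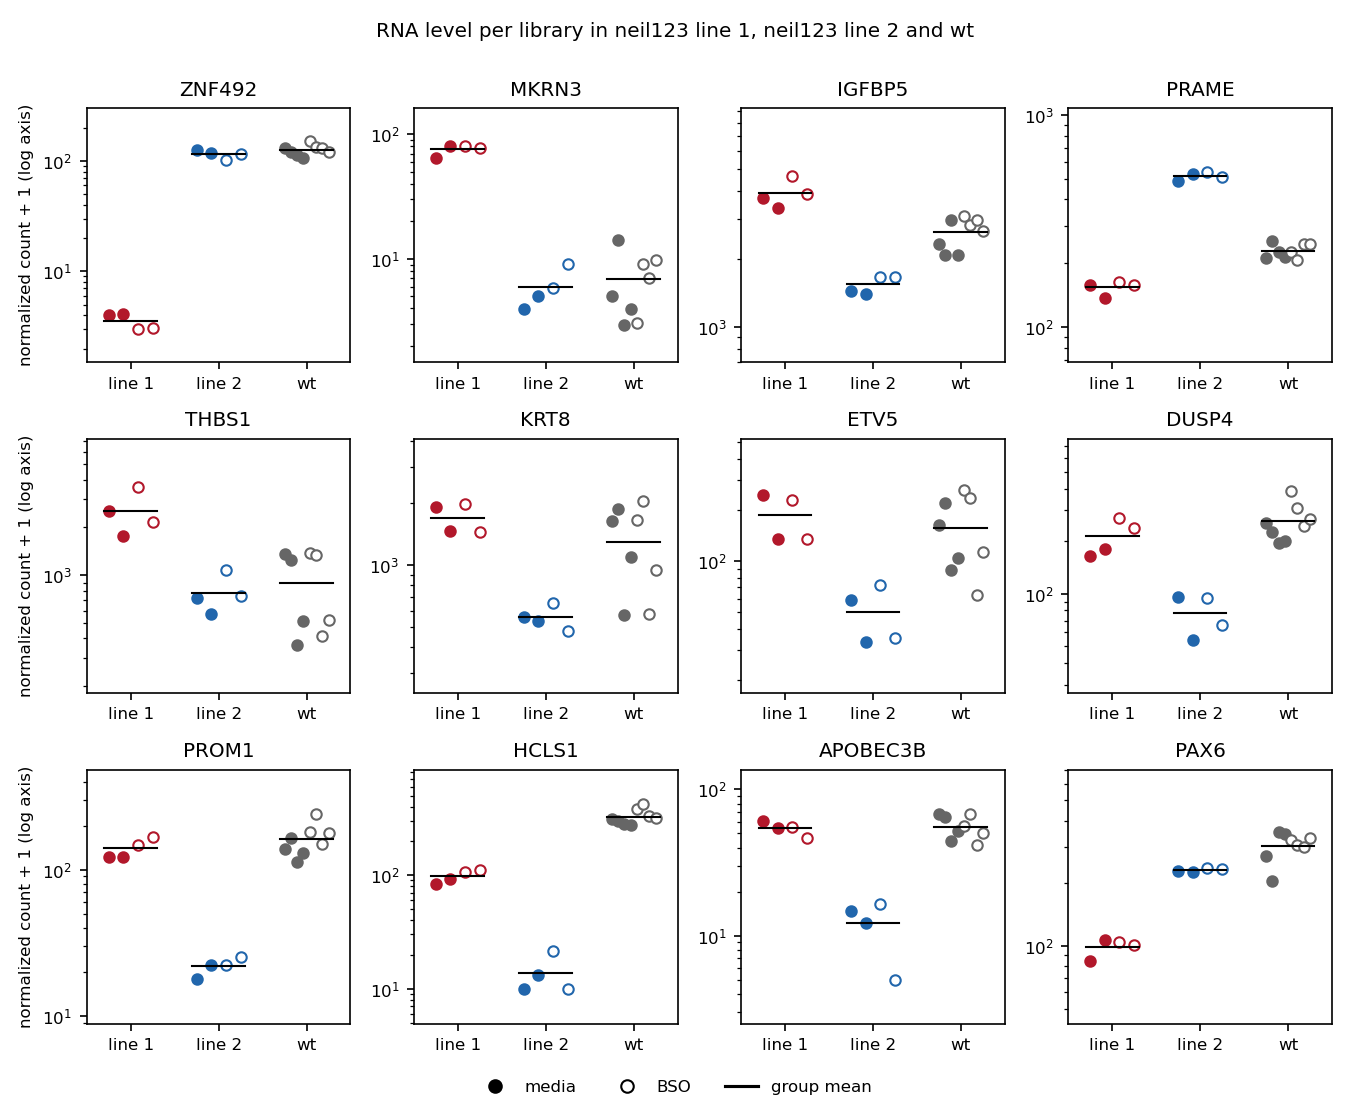
Normalized read count plus 1 on a log axis for 12 genes in each library of neil123 line 1, neil123 line 2 and wt, with media as filled and BSO as open points and the group mean as a bar. ZNF492 is near 3 counts in line 1 and at 100 or more in line 2 and wt, while MKRN3 is above 60 in line 1 and below 14 elsewhere.

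Genes of growth factor signalling were higher in line 1 in 12 and lower in 2 of 45 members tested, and the list's median was 0.10. Receptor tyrosine kinases pass signals from growth factors to the MAP kinase cascade, which in turn induces its own brakes, among them the Sprouty proteins and the dual-specificity phosphatases. IGFBP5, which binds insulin-like growth factors outside the cell, had 3719 and 3344 counts in media and 4642 and 3882 with BSO in line 1, against 1440 and 1394 in media and 1667 in both BSO libraries of line 2. Its difference was 1.33 (SE 0.06, adjusted p = 4.71e-08 by limma), with wt between the lines at 2626 ± 413 (SD, n = 8). GFRA1, the co-receptor that presents the neurotrophic factor GDNF to the kinase RET, and RET itself differed in opposite directions. GFRA1 had 256 and 113 counts in media and 209 and 99.2 with BSO in line 1, against 19.7 and 14.2 in media and 20.4 and 7.04 with BSO in line 2 (difference 3.37, SE 0.34, adjusted p = 7.98e-05). RET had 652 and 616 in media and 675 and 665 with BSO in line 1, against 1313 and 1102 in media and 1067 and 967 with BSO in line 2 (difference -0.76, SE 0.08, adjusted p = 8.19e-05). GFRA1 was the less even of the pair: wt ranged from 11.7 to 274, and the call was lost in the fit over all 42 libraries (adjusted p = 0.104).

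Outputs of the MAP kinase cascade were higher in line 1 in 6 of 10 members tested, with none lower and a list median of 1.36. This list was drawn up after values had been seen, so its count is a description. SPRY4, a Sprouty inhibitor, had 90.6 and 58.0 counts in media and 56.1 and 56.4 with BSO in line 1, against 14.8 and 3.05 in media and 21.4 and 11 with BSO in line 2 (difference 2.5, SE 0.42, adjusted p = 0.00312 by limma). ETV4 and ETV5, ETS transcription factors induced by the cascade, averaged 458 ± 94.5 and 185 ± 58.2 in line 1 and 170 ± 51.1 and 49 ± 18.8 in line 2 (SD, n = 4 each), with differences of 1.45 (adjusted p = 0.000675) and 1.92 (adjusted p = 0.000963). DUSP4, a MAP kinase phosphatase, averaged 211 ± 49.9 in line 1 and 76.6 ± 20.8 in line 2 (difference 1.46, adjusted p = 0.000375). For SPRY4, DUSP4, ETV4 and ETV5 it was line 2 that differed from wt, by -2.37, -1.75, -1.59 and -1.56 (adjusted p = 0.0016, 3.0e-08, 2.7e-05 and 0.0021), while line 1 minus wt was 0.13, -0.29, -0.14 and 0.36 (adjusted p from 0.19 to 0.89). Cyclin D1 (CCND1) and DUSP6 were called with differences of 1.53 and 1.28, but neither call held with 1 mean per line and letter (adjusted p = 0.059 and 0.102), and DUSP6 also lost its call in 4 of the 8 fits that left out a library. The remaining members, PHLDA1, SPRY2, EPHA2 and EPHA4, had differences of 0.31, 0.28, 0.08 and -0.14 and were not called, although EPHA4 was with the replicate block (adjusted p = 0.022).

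Targets of YAP and TAZ, coactivators that respond to adhesion and cell tension, were higher in line 1 in 11 of 20 members tested and lower in none, with a list median of 0.31; this list too was drawn up after values had been seen. ANKRD1, a muscle ankyrin repeat gene widely used as a YAP readout, had 275 and 168 counts in media and 317 and 180 with BSO in line 1, against 55.3 and 24.4 in media and 55.4 and 23.1 with BSO in line 2 (difference 2.61, SE 0.31, adjusted p = 0.000234 by limma). MYOF, a membrane repair protein, averaged 1860 ± 295 in line 1 and 772 ± 72.2 in line 2 (difference 1.26, adjusted p = 4.64e-06), and F3, tissue factor, 767 ± 72.7 in line 1 and 386 ± 67.6 in line 2 (difference 1.0, adjusted p = 5.45e-06). CCN1, a secreted matrix protein, averaged 9723 ± 664 in line 1 and 6466 ± 116 in line 2 (difference 0.59, adjusted p = 9.82e-06). Its relative CCN2 averaged 560 ± 71.1 in line 1 and 492 ± 69.8 in line 2 and was not called (adjusted p = 0.379). The calls of ANKRD1, MYOF and F3 were lost in the fit over all 42 libraries (adjusted p = 0.137, 0.087 and 0.107), and that of CCN1 was kept (adjusted p = 0.00903).

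Matrix genes differed in both directions, and the keratin KRT8 was higher in line 1. Collagens and laminins, the main fibrous and sheet-forming proteins of the matrix, were higher in line 1 in 7 of 25 genes tested and lower in none. Among the 25, 14 differences were positive, beside 7490 of 14316 over all genes tested, and the list's median was 0.04. Other matrix and adhesion genes were higher in 5 and lower in 3 of 35 (THBS2, ITGB8 and FBLN1), with a median of 0.09. COL9A3 averaged 821 ± 108 in line 1 and 388 ± 65.2 in line 2 (difference 1.09, adjusted p = 0.000118 by limma), LAMA2 1080 ± 124 in line 1 and 630 ± 65.6 in line 2 (0.77, adjusted p = 0.000195), and LAMB1 2598 ± 262 in line 1 and 1665 ± 101 in line 2 (0.64, adjusted p = 0.000125). COL5A2 averaged 4832 ± 675 in line 1 and 3101 ± 198 in line 2 (0.63, adjusted p = 0.000401), and wt was far below both at 294 ± 124. THBS1, thrombospondin, had 2540 and 1772 counts in media and 3610 and 2172 with BSO in line 1, against 716 and 566 in media and 1071 and 739 with BSO in line 2 (difference 1.69, SE 0.16, adjusted p = 4.36e-05). Its relative THBS2 was lower in line 1, at 408 ± 79.1 against 660 ± 136 in line 2 (difference -0.69, adjusted p = 0.00687). ITGB8, an integrin subunit, and FBLN1, a matrix glycoprotein named here after its value was seen, were lower by -0.53 and -0.25 (adjusted p = 0.0459 and 0.000873), and ITGB8 lost its call in 6 of the 8 fits that left out a library. KRT8, a keratin of simple epithelia, had 1903 and 1463 counts in media and 1986 and 1449 with BSO in line 1, against 559 and 537 in media and 653 and 479 with BSO in line 2 (difference 1.60, SE 0.11, adjusted p = 4.64e-06). The wt libraries ranged from 569 to 2047 for KRT8, with line 1 inside that range, and from 362.5 to 1384 for THBS1. In wt both genes were lower in letter B than in letter A libraries. COL9A3 and LAMB1 kept their call in the fit over all 42 libraries, where LAMA2, COL5A2, THBS1, THBS2, ITGB8 and KRT8 had adjusted p from 0.0856 to 0.777; THBS2 also lost its call with 1 mean per line and letter (adjusted p = 0.0545).

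KRT8 is also a marker of epithelial cells, and the part of other cells in these differences was not tested. The epithelial marker list summed to 3104 to 3873 counts in line 1, 1830 to 2083 in line 2 and 1991 to 4062 in wt, with 2 of 4 members tested called, both higher in line 1 (KRT8 and KRT18). The fibroblast list summed to 2890 to 4296 in line 1 and 3263 to 3723 in line 2, with none of 3 members tested called.

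**Figure D2:**
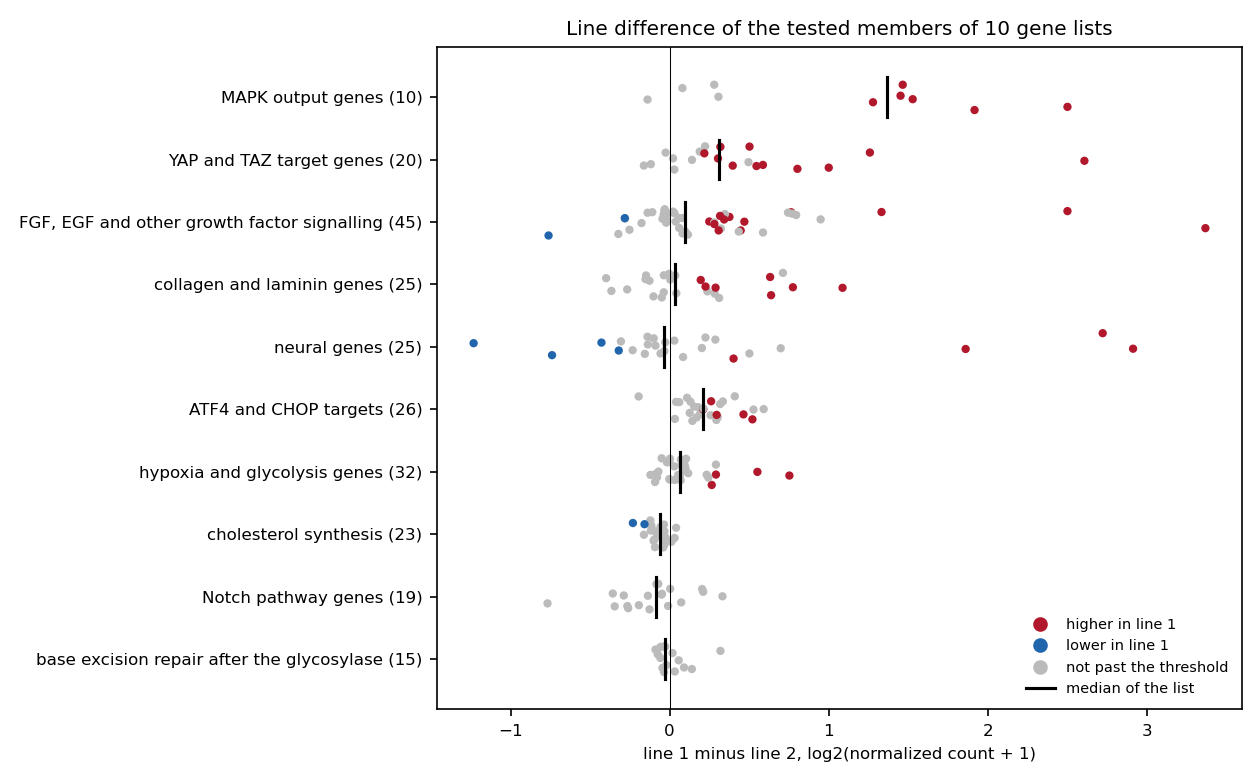
Difference between the lines (line 1 minus line 2, log2 scale) of each tested member of 10 gene lists, red where higher and blue where lower in line 1, grey where not past the threshold, with the list's median as a black bar and the number tested in parentheses. The MAP kinase list has 6 red points among 10 and the YAP list 11 among 20. Both were drawn up after values had been seen, so their counts do not compare with those of the other lists. The ATF4 list has 5 among 26 (median 0.21) and later base excision repair genes have none among 15 (median -0.03).

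Genes of neural and blood lineages differed in both directions. Neural genes were higher in 4 and lower in 4 of 25 members tested, with a median of -0.03. NEFL, a neurofilament subunit, had 144 and 155 counts in media and 159 and 224 with BSO in line 1, against 44.4 and 55.9 in media and 52.5 and 33.2 with BSO in line 2 (difference 1.86, SE 0.19, adjusted p = 8.19e-05 by limma). DCX, the microtubule protein doublecortin, averaged 54.6 ± 22.4 in line 1 and 8.15 ± 4.43 in line 2 (difference 2.72, adjusted p = 0.000749), and SOX1, a neural progenitor transcription factor, 21.7 ± 3.67 in line 1 and 2.24 ± 1.49 in line 2 (difference 2.91, adjusted p = 0.000845). PAX6, an eye and forebrain regulator, was lower in line 1: it had 83.7 and 106 counts in media and 103 and 100 with BSO in line 1, against 229 and 226 in media and 236 and 233 with BSO in line 2 (difference -1.23, SE 0.11, adjusted p = 1.9e-05). Line 1 libraries of these 4 genes did not overlap those of line 2. In the fit over all 42 libraries DCX and PAX6 kept their call, and NEFL and SOX1 did not (adjusted p = 0.556 and 0.0728).

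Of 15 blood-lineage genes tested, 2 were higher (KIT and CD34) and 1 lower (ITGA2B) in line 1. Among the 15, 6 differences were positive, beside 7490 of 14316 over all genes tested, and the list's median was -0.11. ITGA2B, the platelet integrin subunit CD41, averaged 109 ± 18.1 in line 1 and 155 ± 10.4 in line 2 (difference -0.52, adjusted p = 0.0411 by limma), and the call was lost in 6 of the 8 fits that left out a library. KIT, the stem cell factor receptor, averaged 138 ± 26.0 in line 1 and 51.0 ± 5.53 in line 2 (difference 1.41, SE 0.14, adjusted p = 6.98e-05 by limma), both below the 391 ± 46.0 of wt. HCLS1, PROM1 and IL7R are not in that list and are named for the size of their difference. HCLS1, an actin regulator of blood cells, had 81.7 and 92.1 counts in media and 105 and 110 with BSO in line 1, against 8.88 and 12.2 in media and 20.4 and 9.05 with BSO in line 2 (difference 2.91, SE 0.24, adjusted p = 1.38e-05). Here too both lines lay below wt (326 ± 50.6), line 2 by more. PROM1, the stem cell surface antigen CD133, averaged 139 ± 22 in line 1 and 20.9 ± 3.05 in line 2 (difference 2.67, SE 0.16, adjusted p = 1.03e-06), with line 1 within the wt range of 112 to 241. CD34 and the interleukin 7 receptor IL7R were also higher in line 1 (differences 2.49 and 2.41, adjusted p = 0.00554 and 5.72e-05), and both lost the call in the fit over all 42 libraries (adjusted p = 0.155 and 0.0856).

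A pair of cytidine deaminases was low in line 2. CDA, which salvages free cytidine, had 105 and 107 counts in media and 120 and 126 with BSO in line 1, against 15.8 and 9.15 in media and 21.4 and 16.1 with BSO in line 2 (difference 2.85, SE 0.20, adjusted p = 4.64e-06 by limma). APOBEC3B, which turns cytosine into uracil in single-stranded DNA, had 59.8 and 53.8 counts in media and 54.1 and 45.9 with BSO in line 1, against 13.8 and 11 in media and 15.6 and 4.02 with BSO in line 2 (difference 2.29, SE 0.33, adjusted p = 0.000961). Line 1 minus wt was 0.18 and -0.02 for these genes (adjusted p = 0.53 and 0.96), and line 2 minus wt -2.67 and -2.31 (adjusted p = 1.0e-09 and 4.8e-07). HRK, a BH3-only activator of cell death, likewise averaged 136 ± 48.9 in line 1 and 32.2 ± 18.9 in line 2 (difference 2.17, adjusted p = 2.47e-05). HRK was 1 of 2 called among 25 BCL2 family and death receptor genes, beside 5.83% of all genes tested. All 3 genes kept their call in each fit that left out a library, with 1 mean per line and letter, and over all 42 libraries.

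Of 31 interferon and DNA sensing genes tested, 2 were higher and 2 lower in line 1, and the sensor and its adaptor moved apart. CGAS, the cytosolic DNA sensor, averaged 614 ± 44.3 in line 1 and 424 ± 33.8 in line 2 (difference 0.53, adjusted p = 0.000388 by limma). STING1, the adaptor downstream of it, had 28.9 and 38.3 counts in media and 47.1 and 41.8 with BSO in line 1, against 77.0 and 80.4 in media and 86.5 and 93.5 with BSO in line 2 (difference -1.11, SE 0.16, adjusted p = 0.000956). OAS2, an interferon-induced enzyme, averaged 70.4 ± 11 in line 1 and 28.9 ± 3.48 in line 2 (difference 1.25, adjusted p = 0.00131). The CGAS call was lost in the fit over all 42 libraries (adjusted p = 0.893). TAP1, the fourth gene called, differed by -0.20 and lost its call in each of the 8 fits that left out a library.

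Of the 4 genes lower in line 1 by 8-fold or more, ZNF492 and LYPD1 averaged 50 counts or more in line 2. The others, ZNF849P and LBX1, named after their values were seen, averaged 20.5 and 37.7 in line 2 (differences -3.89 and -3.30, adjusted p = 0.000195 and 0.00016 by limma). LYPD1, a GPI-anchored Ly6 family protein, had 19.9 and 3.11 counts in media and 16 and 6.26 with BSO in line 1, against 97.7 and 87.5 in media and 107 and 91.5 with BSO in line 2 (difference -3.25, SE 0.42, adjusted p = 0.000452 by limma). FOLH1, the folate hydrolase known as prostate-specific membrane antigen, averaged 17.3 ± 6.76 in line 1 and 93.9 ± 12 in line 2 (difference -2.46, adjusted p = 0.000125), and ADAMTS12, a secreted metalloprotease, 38.6 ± 6.23 in line 1 and 157 ± 21.8 in line 2 (difference -2.0, adjusted p = 1.09e-05). In these 3 genes line 2 exceeded wt, by 4.40, 1.54 and 2.74 (adjusted p = 4.9e-07, 3.6e-05 and 4.8e-07). PRAME, a cancer-testis antigen, had 156 and 136 counts in media and 162 and 158 with BSO in line 1, against 485 and 525 in media and 538 and 511 with BSO in line 2 (difference -1.75, SE 0.08, adjusted p = 9.45e-08). DAZL, a germ cell RNA-binding protein, averaged 372 ± 25 in line 1 and 563 ± 45.7 in line 2 (difference -0.59, adjusted p = 0.000164). For PRAME and DAZL the lines lay on opposite sides of wt. GTSF1, the 1 germline list gene called higher in line 1, went the other way (difference 1.63, adjusted p = 0.0214 by limma). The zinc finger gene ZNF518B, the LIM domain regulator LMO3 and the tendon gene TNMD were lower in line 1 by -1.34, -1.35 and -1.46 (adjusted p = 4.64e-06, 1.6e-06 and 5.34e-06). In the fit over all 42 libraries LYPD1, FOLH1 and LMO3 kept their call, while ADAMTS12, PRAME, DAZL, ZNF518B and TNMD had adjusted p from 0.0527 to 0.142.

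Other genes with large positive differences were CLMP, an adhesion protein of epithelial junctions (2.94, adjusted p = 0.000448 by limma), CALCR, the calcitonin receptor (2.68, adjusted p = 0.000218), NPR3, the natriuretic peptide clearance receptor (2.58, adjusted p = 0.00173), and the potassium channel gene KCND3 (1.54, adjusted p = 0.000262). The noncoding RNAs ESRG and CYTOR differed by 3.09 and 2.86 (adjusted p = 0.000262 and 5.34e-06). CYTOR has a near-identical copy elsewhere on its chromosome, so its counts are uncertain. ARHGAP36, RHOB, KCTD8, GLB1L3, FCGRT, SELENBP1 and DNALI1 had differences between -1.90 and -1.33, with adjusted p from 3.24e-05 to 0.00371. SELENBP1 and DNALI1 lay above wt in each line, at 63.9 ± 19.7 and 29.0 ± 6.75 in line 1, 158 ± 29.4 and 76.1 ± 7.46 in line 2 and 7.91 ± 5.02 and 10.6 ± 4.12 in wt. NPR3, RHOB and SELENBP1 lost their call in the fit over all 42 libraries (adjusted p = 0.0527, 0.606 and 0.415).

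Stress and metabolic genes differed by less. ATF4, a transcription factor switched on by amino acid shortage and other stresses, drives genes of amino acid synthesis. Its targets and those of CHOP were higher in line 1 in 5 of 26 genes tested and lower in none. Over all genes tested 5.83% were called. Of the 26, 25 had a positive difference, beside 7490 of 14316 over all genes tested, and the list's median was 0.21. VLDLR, a lipoprotein receptor, averaged 1552 ± 110 in line 1 and 1086 ± 127 in line 2 (difference 0.52, adjusted p = 0.000353 by limma), and PSAT1, a serine synthesis enzyme, 10145 ± 3082 in line 1 and 8349 ± 2001 in line 2 (difference 0.26, adjusted p = 0.0107, and 0.064 with line and letter as a random block). Among 24 NRF2 targets, genes of the antioxidant response, 2 were higher and none lower, with a median of 0.11. FTL, the ferritin light chain that stores iron, had 18972 and 17407 counts in media and 44233 and 39376 with BSO in line 1, against 12044 and 11294 in media and 32015 and 25203 with BSO in line 2, so within each treatment line 1 was above line 2 (difference 0.60, SE 0.07, adjusted p = 0.000194). GCLC and GCLM, the subunits of the enzyme that BSO inhibits, had differences of -0.16 and 0.12 and were not called, although GCLC was with the replicate block (adjusted p = 0.00502). GSTM2, a glutathione transferase, was lower in line 1 (161 ± 16.2 against 271 ± 27.3 in line 2, difference -0.75, adjusted p = 0.00101). VLDLR, PSAT1, FTL and GSTM2 lost their call in the fit over all 42 libraries (adjusted p = 0.165, 0.461, 0.31 and 0.218).

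Hypoxia and glycolysis genes were higher in line 1 in 4 and lower in none of 32 tested, with a median of 0.07. SLC16A3, a lactate exporter, had 1243 and 1165 counts in media and 1121 and 1088 with BSO in line 1, against 671 and 636 in media and 701 and 731 with BSO in line 2 (difference 0.75, SE 0.06, adjusted p = 1.32e-05 by limma). Line 2 averaged 685 ± 40.7 and wt 663 ± 53.3. ADM, the vasodilator adrenomedullin, averaged 705 ± 77.9 in line 1 and 481 ± 59.8 in line 2 (difference 0.55, adjusted p = 0.00146). SLC16A3 lost its call over all 42 libraries (adjusted p = 0.141) and ADM kept it (adjusted p = 0.0126). Cholesterol synthesis genes were lower in 2 of 23 tested (HMGCS1 and SREBF2), beside 5.83% of all genes called. Among the 23, 3 differences were positive, beside 7490 of 14316 over all genes tested, and the list's median was -0.06. Neither call held by limma with 1 mean per line and letter (adjusted p = 0.127 and 0.327).

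With 5.83% of all genes called, lists of 9 to 24 genes would hold few calls, so nothing is read from their counts. None of the 9 other DNA glycosylase genes and none of the 15 later base excision repair genes was called, with medians of -0.01 and -0.03. TET1, an enzyme that oxidizes methylated cytosine, was the 1 of 7 TET and DNA methyltransferase genes called, with a difference of 0.16 that was lost in 7 of the 8 fits leaving out a library. No call was made among 19 Notch pathway genes, 24 clustered protocadherins, 18 p53 targets, 14 ESCRT-III genes or 13 mitochondrially encoded subunits. Of the 13 mitochondrially encoded subunits, 0 had a positive difference, beside 7490 of 14316 over all genes tested, and their median was -0.10. These 13 are not independent observations. Their summed counts were 526540 to 772350 in line 1, a range that enclosed the 660390 to 724850 of line 2. The mitochondrial share was 1.84% and 2.08% in letter A libraries of line 1. It was 2.45% and 2.72% in letter B libraries of line 1 and 2.36% to 2.55% in line 2. POU5F1, the pluripotency factor OCT4 and the 1 of 12 stem cell state genes called, averaged 11304 ± 917 in line 1 and 13346 ± 325 in line 2 (difference -0.24, adjusted p = 0.00825 by limma), a call that did not hold with 1 mean per line and letter (adjusted p = 0.144). Along the genome, the median difference lay between -0.01 and 0.02 on each of 23 chromosomes (1 to 22 and X) and between -0.07 and 0.08 in each of 529 windows of 50 neighbouring genes. No chromosome or window of this size thus had a median near a 2-fold difference.

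The lines were also compared within each treatment. In media alone 179 genes were called (1.25%) and with BSO alone 175 (1.22%), and 126 genes were called in both with the same sign. These contrasts share no library, but same-letter libraries of 1 line deviated together across media and BSO (r = 0.341 in line 1 and 0.266 in line 2), so the contrasts are not independent. Of the 179 called in media, 177 had the same sign with BSO, against 68.1% of all genes tested, and the median ratio of the size with BSO to that in media was 0.92. Across the 14316 genes, which are not independent replicates, the media and BSO differences correlated with r = 0.63. With the replicate block, 854 genes were called in media and 922 with BSO. MKRN3 differed by 4.01 in media and 3.45 with BSO, ZNF492 by -4.91 in media and -5.14 with BSO, and IGFBP5 by 1.31 in media and 1.35 with BSO.

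**Figure D3:**
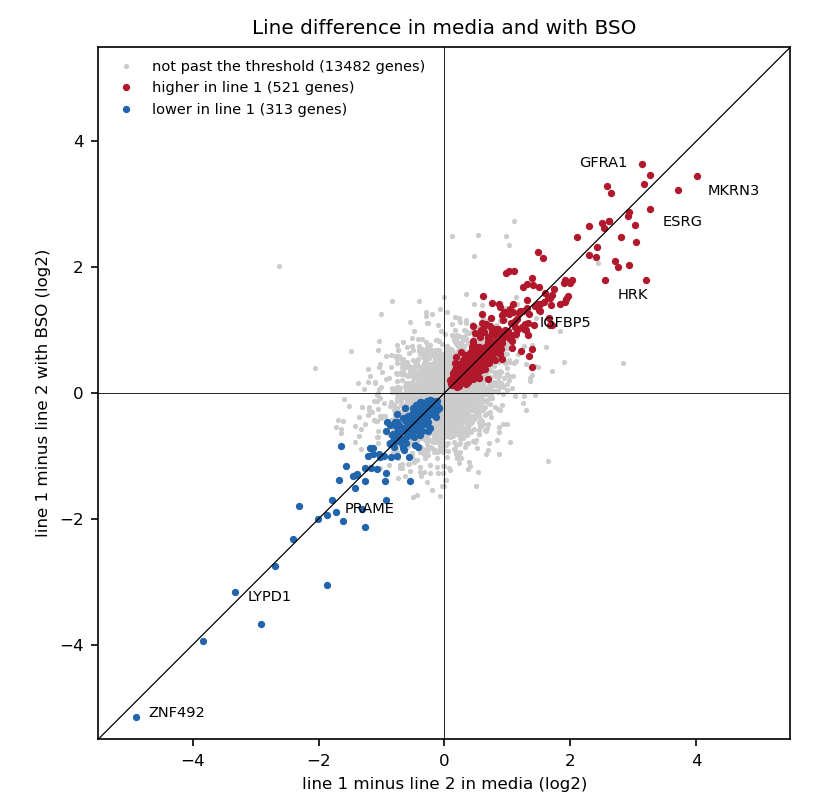
Line 1 minus line 2 (log2) in media on the x axis and with BSO on the y axis for 14316 genes, with genes higher in line 1 in red, lower in blue and not called in grey, and the diagonal as a line. Called genes lie along the diagonal from ZNF492 (-4.91 and -5.14) to MKRN3 (4.01 and 3.45).

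The change with BSO itself was not called as different between the lines in any gene (0 of 14316, 0%) by limma, with 195 genes at an unadjusted p under 0.05. With line and letter as a replicate block 14 genes were called. Mitochondrial ND4L, a subunit of respiratory complex I, averaged 19610 counts with BSO and 14623 in media in line 1, and 16989 with BSO and 16992 in media in line 2 (difference of the changes 0.43, SE 0.04, adjusted p = 2.5484e-05 with the block). Line 1 itself was uneven here, with 12691 and 16556 in media against 17349 and 21871 with BSO.

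Set against wt, neither line was the plain source of the differences. Line 1 differed from wt in 2920 of 14384 genes (20.3%) and line 2 in 2541 (17.7%). Of 831 genes called between the lines and also tested here, 499 were past the threshold in line 1 against wt and 417 in line 2 against wt. The contrasts share the wt libraries and each shares a line with the line comparison, so these counts are a description. HCLS1, COL5A2 and NPR3 show both lines on the same side of wt at unequal distances, by -1.73, 4.15 and 4.50 in line 1 and -4.65, 3.52 and 1.92 in line 2. CYTOR, PRAME and LMO3 show them on opposite sides, at 1.47, -0.57 and -0.58 in line 1 and -1.39, 1.17 and 0.77 in line 2.

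**Figure D4:**
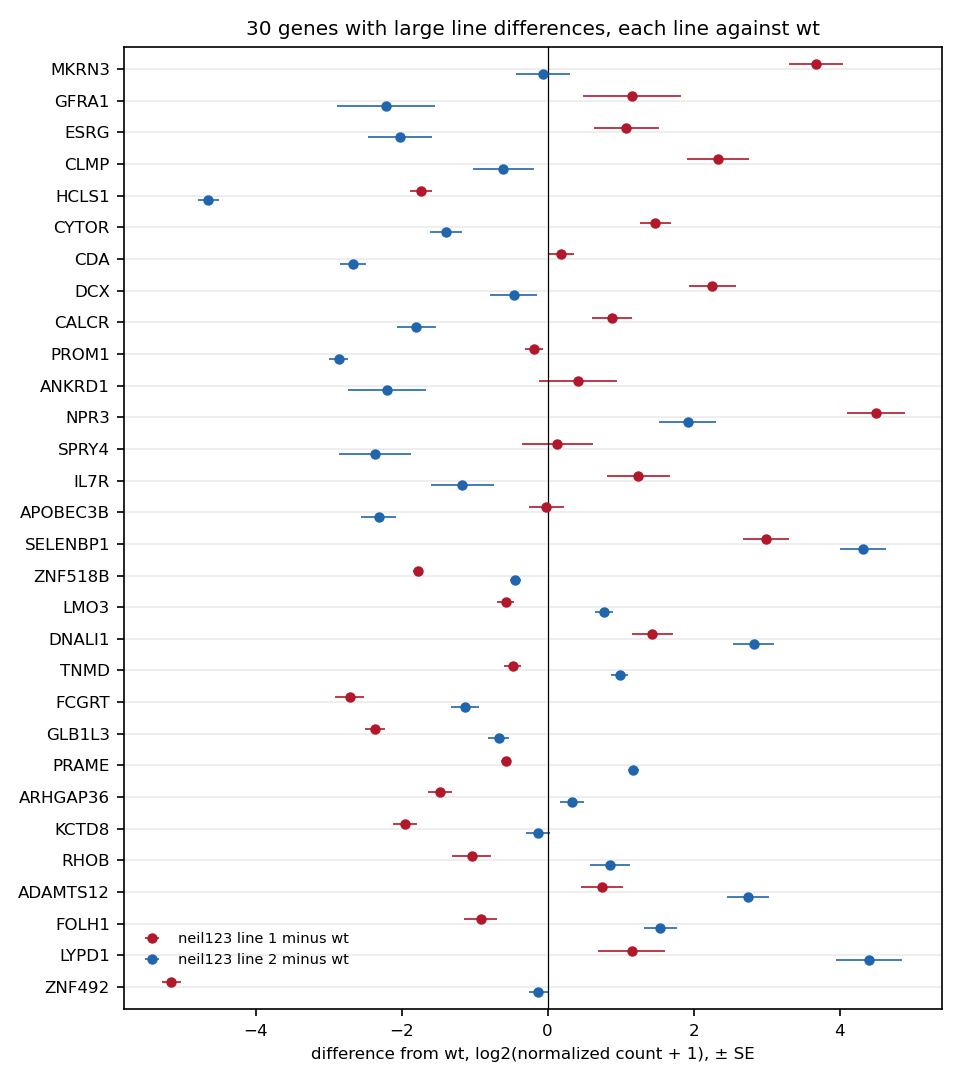
Difference from wt (log2 scale, bars ± SE) of neil123 line 1 in red and line 2 in blue for 30 genes, ordered by the difference between the lines. For ZNF492 line 1 is at -5.15 and line 2 at -0.13, whereas for APOBEC3B line 1 is at -0.02 and line 2 at -2.31.

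The same contrast was made between other pairs in the series. Line 1 of cells lacking NEIL3 alone (neil3) differed from line 2 in 1447 of 14415 genes (10%), of which 405 were 2-fold or more, and wt 1.1 differed from wt 1.3 in 7 of 14381 genes (0.0487%), with 327 at an unadjusted p under 0.05. The spread of all differences was 0.28 (SD over genes, log2) between the neil123 lines, 0.50 between the neil3 lines and 0.15 between wt 1.1 and wt 1.3. With the replicate block the counts were 3212 in neil3 and 93 in wt. These numbers were not tested against each other, and with 1 mean per line and letter they were 614 in neil3 and 0 in wt. Genes called in both neil123 and neil3 numbered 255, 30.6% of the neil123 list and 17.6% of the neil3 list, beside the 10% of all genes called in neil3.

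Letters A and B also differed within the neil123 libraries: 1969 genes (13.8%) were called between B and A in the fit with line, treatment and letter, 832 higher and 1137 lower in B. Heat shock genes were among those higher in B, with HSPA1B at 2314 counts in B and 934 in A and DNAJB1 at 6080 in B and 2964 in A. MAGED4B differed by more (418 in B, 98.3 in A). HSPA1B shares nearly all of its sequence with HSPA1A, so its counts are uncertain. On the other side were several genes that also differed between the lines, such as GFRA1 (58.3 in B, 126 in A), CLMP (44.6 in B, 88.4 in A) and ESRG (193 in B, 374 in A). In those genes each line 1 library still exceeded every line 2 library.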

How the data were processed

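RNA levels come from 1 deposited table with 42 libraries. The authors' values are a signal per gene, namely read counts divided by a factor for each library. The submitters' processing notes name Trim Galore for trimming, HISAT2 and GRCh38 (hg38) for alignment, SAMtools, featureCounts for counting and DESeq2 for scaling. Their versions, the annotation and the strand setting are not given, so antisense genes are uncertain. Of 30182 entries, 20515 had a symbol and 20102 matched RefSeq. Unnamed entries took 0.948% to 1.25% of the 8 libraries.

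Columns were matched to samples by name. limma 3.58.1 in R 4.3.3 with an intensity trend was fitted to log2(value + 1) of every named gene whose mean over the libraries compared was at least 10, with treatment as a covariate, and p-values were adjusted by Benjamini-Hochberg over all of them. A fit of line, treatment and their product gave the difference in the change with BSO. The line fit was tested on simulated libraries drawn independently and without an effect of the letter. That test does not cover libraries that deviate together. 100% of values were whole multiples of a column's step (tolerance 1e-06), but the steps of 3 of the 8 columns lay too near 1 to be accepted as whole reads, so edgeR 4.0.16 ran on the other 5. Its line comparison called 485 genes, limma on the same 5 libraries 511. Both line 1 libraries among the 5 are letter B and 2 of the 3 of line 2 are letter A, so line and letter are partly confounded there.

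Same-letter libraries deviated together (r = 0.173 to 0.341 over the 6 pairs of groups), so the letters were taken to pair the libraries. A fit with the letter as a replicate block is given where it moved a count by more than 1.5 times. For the difference in the change with BSO the replicate block was line and letter together. Libraries of 1 line and treatment differed by more than counting alone gives (chi-square divided by its degrees of freedom, 6.36 to 10.9).

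Named genes are NEIL1, NEIL2 and NEIL3, the 15 largest differences each way among called genes whose lines did not overlap and whose higher mean was 50 or more, up to 4 called members of each list, and a few singled out after their values were seen (RET, BCR, ABL1, GCLC, GCLM, zinc finger neighbours, genes of the letters and of the blocked difference in BSO change). The members and lists were chosen with earlier results of these data known. Alternatives were other pseudocounts, filters, scalings, blocks and sets of libraries.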

Additional observations from a re-analysis of the deposited data

Results flagged for a closer look

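In 14 genes the change with BSO in line 1 minus that in line 2 passed the threshold by limma (adjusted p from 2.5484e-05 to 0.019293). The replicate block in that fit was line and letter together, and without the block none passed. Each value is that difference of changes on the log2 scale. The mitochondrial transcripts had positive values: ND4L 0.43, ND2 0.33, COX2 0.28, ND1 0.28, ND4 0.27 and COX1 0.26. The mitochondrial pseudogenes MTCO1P12 and MTND2P28, which share reads with them, had 0.83 and 0.44. SMN1.1, a copy of the duplicated SMN gene, had 1.0 and the pseudogene RPS2P46 0.42, and reads of both are uncertain. Negative values were found for the ferritin heavy chain FTH1 (-0.27), the RNA-binding protein PCBP1 (-0.28), the secreted protein PI15 (-0.41) and MAGED4B (-2.73), which has a near-identical copy. Mitochondrial transcripts took 1.84% to 2.72% of the 8 libraries, and the part of that share in these values was not tested.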

How the results depend on the processing

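The number of genes called between the lines (834) stayed within 1.5 times under other pseudocounts, filters and scalings. It was 171 over all 42 libraries, 445 with line and letter as a random block, 268 with 1 mean per line and letter, 179 in media only, 175 with BSO only, 2097 with the replicate block, and 485 by edgeR and 511 by limma on 5 libraries, the last chosen after seeing the data. Leaving out 1 library gave 505 to 838. With the replicate block (also chosen after seeing the data), the counts became 854 in media and 922 with BSO. For the difference in the change with BSO (0 genes) a replicate block of line and letter gave 14 and leaving out 1 library 0 to 1. edgeR on the 5 libraries gave 9, but there 3 of the 4 groups hold 1 library and the BSO library is letter B in line 1 and A in line 2, so that count says nothing of the difference in change. Between neil3 lines (1447) the replicate block gave 3212 and 1 mean per line and letter 614. Between wt 1.1 and wt 1.3 (7) the replicate block gave 93, 1 mean 0 and leaving out 1 library 1 to 5. Fewer libraries or values enter the fits by treatment, on 5 libraries and on means. In the fit over all 42 libraries the spread includes differences between the labelled sources pooled in the groups without letters. Why the other settings moved the counts was not tested. No named gene changed direction past the threshold under any of these settings. Genes under about 10 counts per library rest on few reads.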

Other observations

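Developmental signalling genes differed in both directions. Over all genes tested 5.83% were called. Of 26 BMP, TGF-beta and activin genes tested, 2 were higher and 2 lower in line 1. TGFB2, a TGF-beta ligand, averaged 234 ± 22.9 in line 1 and 135 ± 21.7 in line 2 (difference 0.80, adjusted p = 0.00168 by limma), and BAMBI, a decoy receptor, 670 ± 42.3 in line 1 and 479 ± 43.7 in line 2 (difference 0.48, adjusted p = 0.00164). Both calls were lost in the fit over all 42 libraries (adjusted p = 0.243 and 0.128). WNT pathway genes were higher in 1 and lower in 3 of 32, HOX genes higher in 1 and lower in 2 of 32, nuclear receptors 2 and 2 of 29, and ion channels 2 and 1 of 30. KCNN3, a calcium-activated potassium channel, averaged 93.3 ± 10.8 in line 1 and 165 ± 15.1 in line 2 (difference -0.82, adjusted p = 0.000965), with an adjusted p of 0.0527 over all 42 libraries.

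Over all genes tested 5.83% were called, so nothing is read from list counts near that share. Among the other lists, immediate-early genes were higher in 5 and lower in 1 of 26, and epithelial and mesenchymal state genes 4 and 0 of 21. Glutathione genes were higher in 2 and lower in 1 of 28, ferroptosis genes 2 and 0 of 19, cell cycle genes 2 and 1 of 40, ABC transporters 2 and 3 of 21, TCEAL and BEX genes 1 and 1 of 11, germline genes 1 and 2 of 10, and stem cell state genes 0 and 1 of 12. PI15, a secreted protein, had 5334 and 2544 counts in media and 7244 and 3178 with BSO in line 1, against 1258 and 711 in media and 2260 and 1189 with BSO in line 2 (difference 1.75, adjusted p = 0.00292 by limma). Within each line and treatment its letter A library was the higher one, and the call was lost over all 42 libraries (adjusted p = 0.323).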
